A study of Homo sapiens with 15 samples.

Results

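The KRAB domain was the only designed difference between 2 groups of K562 libraries in which dCas9 was given the same guide RNA (gRNA), Cr4. This gRNA was designed for the HS2 enhancer of the beta-globin genes. The comparison took the 3 libraries of dCas9-KRAB with Cr4 and the 3 libraries of dCas9 with Cr4, chosen by their sample titles, which made 6 of the 15 libraries of the series. K562 is a human erythroleukemia line. Both groups were transduced with lentivirus in 4 µg/ml polybrene for stable expression, and both carried a puromycin resistance gene and were put under 1 µg/ml puromycin about 96 hours later. The controls therefore received dCas9 and Cr4 as well, and the series holds no library of dCas9 alone. Binding of dCas9 at HS2 was not measured in these libraries. The time of harvest is not given in the sources used here. The study describes transductions in triplicate, but no label says that the numbered libraries were separate cultures. The p-values therefore weigh differences against the spread between libraries alone, part or all of which may be technical. In limma this spread was pooled over the 5 groups of all 15 libraries, and in the exact tests only the 6 libraries entered.

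Chromatin that is free of tightly packed nucleosomes is cut readily by DNase I, and sequencing the cut ends shows open promoters and enhancers as peaks. The KRAB domain of zinc finger proteins binds the co-repressor TRIM28, which brings in the histone methyltransferase SETDB1 and heterochromatin proteins of the CBX family. HS2 is the strongest single enhancer among the hypersensitive sites HS1 to HS5, which together form the locus control region upstream of HBE1, HBG2, HBG1, HBD and HBB and loop to whichever globin gene is active.

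Each library came as a list of peaks on build hg19, with 66874, 62032 and 88822 peaks for dCas9-KRAB with Cr4 and 68466, 70764 and 86931 peaks for dCas9 with Cr4. The fold and p-value columns of these lists imply a whole number of fragments at each summit (the summit pileup) and the local background around it. Depth differed more within the groups than between them: the median summit pileup was 71, 56 and 111 fragments with dCas9-KRAB and 71, 72 and 100 with dCas9, taken over the 38888 regions that had a peak in every one of the 15 lists. Pileups and local backgrounds are therefore given as ratios to these library medians ("relative"), and differences as log2 of dCas9-KRAB over dCas9. The rank percentile orders the peaks of a list by the authors' fold over local background, with 100 for the strongest peak and 0 for none, in lists shortened to 53098 peaks. The sites taken as K562 markers, HS1 to HS4, GATA1, TAL1, LMO2, HBG1 and HBG2, had peaks in all 6 lists. Other windows of erythroid genes, given below, did not all have one. Of the markers of other cell types, ALB (liver) had a peak in 0 of 15 lists, CD3E (T cells) in 1, and the myeloid regulator SPI1 in 15.

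HS2 (hg19, chr11:5301766-5302230) kept a peak in every library. Its summit held 97, 57 and 113 fragments in dCas9-KRAB with Cr4 and 123, 95 and 130 in dCas9 with Cr4. The exact 95% Poisson interval, which covers counting error only, ran from 43.2 to 73.9 for the lowest of these pileups and from 109 to 154 for the highest. Relative to the library median the pileup was 1.36, 1.02 and 1.02 with dCas9-KRAB and 1.72, 1.32 and 1.30 with dCas9. Replicate 1 was the highest library of both groups, and the ranges overlapped, because replicate 1 of dCas9-KRAB stood above replicates 2 and 3 of dCas9. The log2 difference was −0.35 (SE 0.19), with a two-sided exact permutation p of 0.3 where 3 libraries against 3 cannot go below 0.1. Limma's unadjusted p was 0.0746, and its adjusted p over all 38888 regions was 1.00, with HS2 at place 198 by p. Within each replicate number dCas9-KRAB was lower, by −0.34, −0.37 and −0.35 in log2 for numbers 1, 2 and 3. With the replicate number as a block HS2 stood at place 5 by p (limma unadjusted p = 0.00900), and limma's adjusted p was still 1.00. The pairing of numbers 2 and 3 is uncertain, as given below. In such bulk libraries, fewer cells with an open site and less opening per cell cannot be told apart.

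The local background around HS2 was lower in every dCas9-KRAB library than in any dCas9 library. It was 1.35, 1.24 and 0.978 times the library median in dCas9-KRAB with Cr4 and 1.52, 1.50 and 1.57 times in dCas9 with Cr4. The log2 difference of −0.38 (SE 0.18) was the lowest of all 38888 regions. Limma's unadjusted p was 0.0543 and its adjusted p 1.00, at place 8 by p, and the two-sided exact permutation p was 0.1, the smallest possible. Groups that did not overlap, with dCas9-KRAB lower, made up 1.19% of all regions on this measure. The measure was chosen after the data had been seen. It is solved from the same columns as the pileup, so it is not independent of it. Whether the background holds fragments of the HS2 peak itself was not tested.

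Signal over local background at HS2 did not separate the groups. The fold sets the summit against the local background, and both were lower with dCas9-KRAB (log2 differences −0.35 and −0.38). A flat fold, or a flat rank by fold, therefore does not show an unchanged summit. The authors' fold was 8.55, 7.34 and 8.43 with dCas9-KRAB and 9.67, 7.97 and 7.17 with dCas9, and the rank percentile was 65.9, 48.0 and 64.6 with dCas9-KRAB and 74.9, 52.4 and 44.6 with dCas9. The libraries of both groups interleaved on both scales. The mean percentile differed by 2.18 points (SE 12.1; two-sided exact permutation p = 0.9). The HS2 peak was 391, 350 and 424 bp wide with dCas9-KRAB and 428, 408 and 423 bp with dCas9. Its summit fell within 22 bp (5301993 to 5302015) with dCas9-KRAB and within 71 bp (5301925 to 5301996) with dCas9, so that the 2 ranges met only near their ends.

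**Figure D1:**
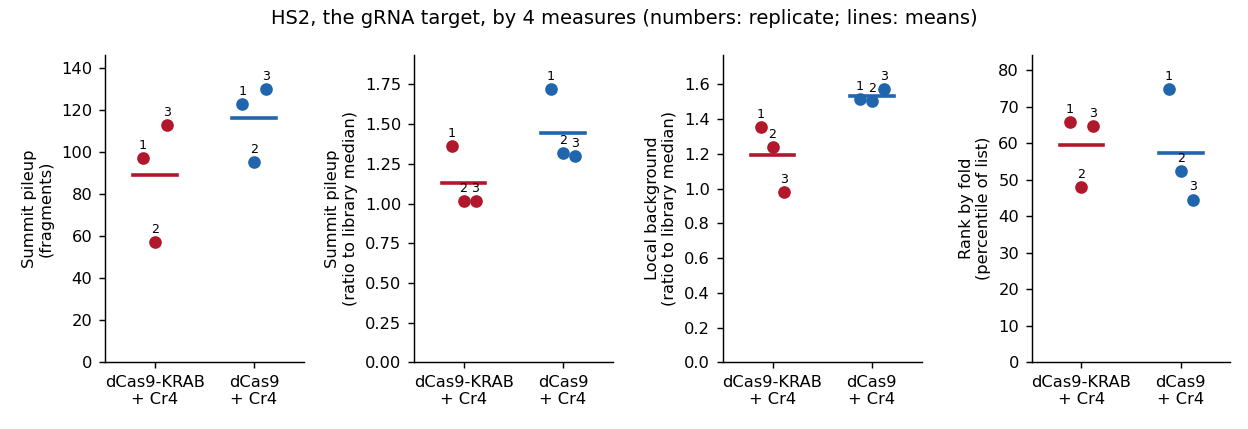
HS2 in the 6 libraries by summit pileup in fragments, summit pileup and local background as ratios to the library median, and rank percentile by fold, with dCas9-KRAB with Cr4 (red) left of dCas9 with Cr4 (blue). Points are libraries marked with their replicate number and lines are means; only the local background separates the groups.

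HS3 (chr11:5305792-5306310), the other strong enhancer of the locus control region, was lower with dCas9-KRAB on all 3 measures. Its summit held 72, 59 and 84 fragments in dCas9-KRAB with Cr4 and 94, 112 and 130 in dCas9 with Cr4. Relative to the library median these were 1.01, 1.05 and 0.759 with dCas9-KRAB and 1.32, 1.55 and 1.30 with dCas9, without overlap. The log2 difference of −0.57 (SE 0.21) was the lowest of all 38888 regions, and it stood at place 2 by p in limma (adjusted p = 1.00; two-sided exact permutation p = 0.1, the smallest possible). Its rank percentile was 40.3, 40.1 and 31.0 with dCas9-KRAB and 57.2, 70.1 and 42.6 with dCas9, also without overlap, a difference of −19.5 points (SE 9.81). The local background was 1.35, 1.41 and 1.02 times the median with dCas9-KRAB and 1.45, 1.43 and 1.60 times with dCas9 (log2 difference −0.26, SE 0.19), again with all of dCas9-KRAB lower. Without replicate 3 of dCas9-KRAB the background difference was −0.11, at place 3921 from the lowest, and on the authors' fold column, in place of the pileup, HS3 was at −0.31, at place 137.

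HS1 (chr11:5296783-5297378), on the gene side of HS2, combined a lower background with a summit that was not lower. The relative local background was 1.04, 0.975 and 0.884 with dCas9-KRAB and 1.08, 1.12 and 1.22 with dCas9, without overlap. The relative pileup was 0.917, 1.11 and 0.973 with dCas9-KRAB and 0.653, 0.849 and 1.23 with dCas9, which overlapped, with a log2 difference of 0.18 (SE 0.24). The rank percentile was 52.6, 72.0 and 69.1 with dCas9-KRAB and 13.4, 36.2 and 63.1 with dCas9, a difference of 27.0 points (SE 12.6; limma adjusted p = 1.00) with overlap. Without replicate 1 of dCas9 the rank difference was 14.9 points and the pileup difference −0.04, and without replicate 3 of dCas9 they were 39.7 points and 0.42. HS1, HS2 and HS3 lie within a few kilobases of each other, so their local backgrounds may share fragments. The width of the window behind the background is not given in the sources used here.

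The outer sites of the locus control region overlapped between the groups. At HS4 (chr11:5309327-5309737) the relative pileup was 0.819, 1.39 and 0.875 with dCas9-KRAB and 0.792, 0.822 and 1.30 with dCas9 (log2 difference 0.08, SE 0.24). At HS5 (chr11:5312466-5312801), a CTCF-bound boundary site, it was 0.556, 0.579 and 0.571 with dCas9-KRAB and 0.486, 0.507 and 0.624 with dCas9 (0.09, SE 0.23). Their rank differences of 14.3 and 6.60 points also came with overlapping groups.

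**Figure D2:**
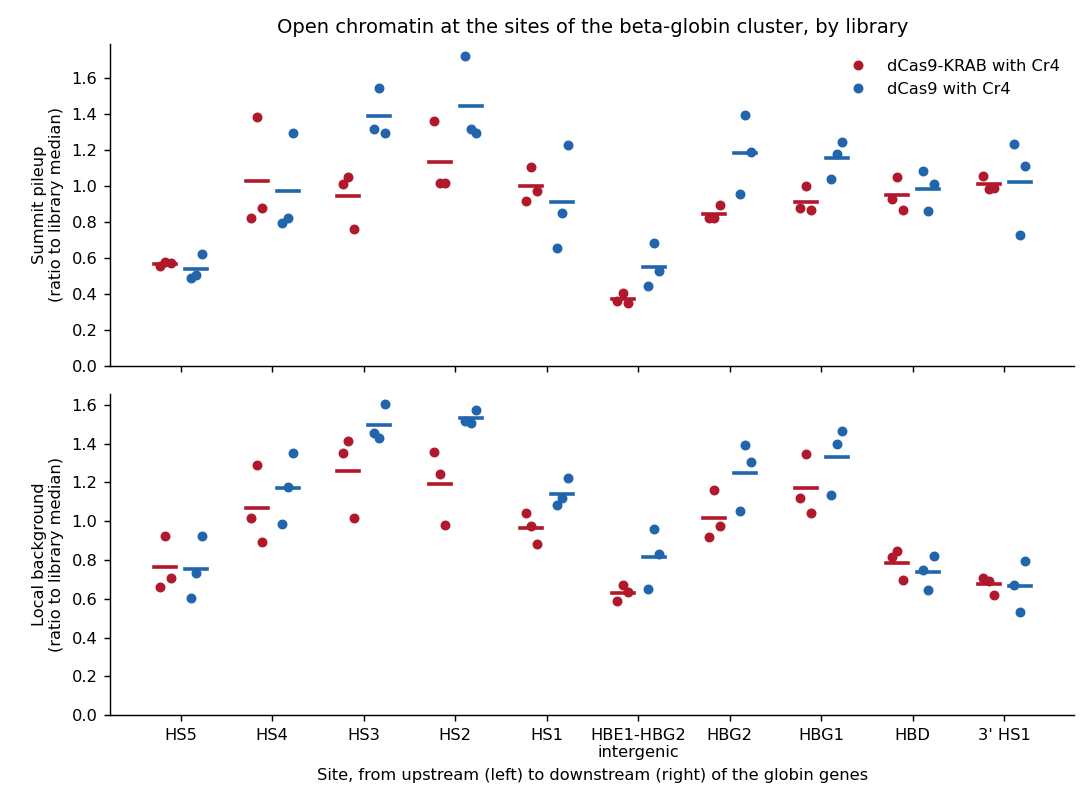
Summit pileup (top) and local background (bottom), both as ratios to the library median, at 10 sites of the beta-globin cluster, with dCas9-KRAB with Cr4 in red on the left of each pair and dCas9 with Cr4 in blue on the right. Points are libraries and lines are means; at HS3, HBG2, HBG1 and the HBE1-HBG2 site the pileups of dCas9-KRAB lie below those of dCas9, and at HS1, HS2 and HS3 the local backgrounds do.

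Among the globin genes, the promoters of the fetal pair HBG2 and HBG1, which K562 cells transcribe, had lower summits with dCas9-KRAB. At HBG2 (chr11:5275738-5276312) the pileup was 58, 46 and 99 fragments with dCas9-KRAB and 68, 101 and 119 with dCas9, or 0.819, 0.825 and 0.893 against 0.958, 1.40 and 1.19 times the median. The groups did not overlap once scaled, and the log2 difference was −0.47 (SE 0.19; limma adjusted p = 1.00, place 15 by p). At HBG1 (chr11:5270839-5271354) the relative pileup was 0.875, 1.00 and 0.866 with dCas9-KRAB and 1.04, 1.18 and 1.25 with dCas9, without overlap (log2 difference −0.34, SE 0.18; limma adjusted p = 1.00, place 167 by p). Because HBG2 and HBG1 are almost the same sequence, fragments could have been placed at either, so the split between them is uncertain and the pair is not independent. Their rank differences were −12.0 and −9.42 points, without overlap at either promoter. On the authors' fold column the log2 differences were −0.19 at HBG2 (place 1331 from the lowest) and −0.15 at HBG1 (place 2475), and the rank difference at HBG2 was −5.46 points without replicate 2 of dCas9-KRAB.

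The open site between HBE1 and HBG2 (chr11:5279797-5280206) had 25, 22 and 38 fragments with dCas9-KRAB and 31, 49 and 52 with dCas9. Its relative pileup of 0.361, 0.404 and 0.348 with dCas9-KRAB lay below the 0.444, 0.685 and 0.525 of dCas9 in every library. It had a peak in 13 of 15 lists and so entered only the rank fit, where the difference was −14.2 points (SE 5.90; limma adjusted p = 1.00). The window at HBE1, the embryonic gene nearest to HS2, had no peak with dCas9-KRAB. It had one in replicates 2 and 3 of dCas9, of 21 and 25 fragments. The weakest peaks of these 2 lists held 12 and 16 fragments, and those of the dCas9-KRAB lists 13, 11 and 18, so a site of this height may or may not be listed. The window at HBB, the adult gene, had a peak in 0 of 15 lists.

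HBD, the minor adult gene, had an open promoter that the groups shared (chr11:5255349-5256040). Its relative pileup was 0.931, 1.05 and 0.866 with dCas9-KRAB and 1.08, 0.863 and 1.01 with dCas9 (log2 difference −0.05, SE 0.15). By rank it was 5.24 points lower (SE 4.56), with 71.6, 77.0 and 77.5 in dCas9-KRAB just below 85.8, 78.3 and 77.7 in dCas9. The RefSeq promoter of HBD is printed below because it is the globin gene of the cluster with a peak and a sequence in the reference used here. It lies on the minus strand at chr11:5234434-5234733 of GRCh38.p14, a different build from that of the peaks. Capitals mark CCAAT, the core bound by NF-Y, then TTATCT, which is the core of GATA factor sites read on the other strand, then ATAAAA, in the place of a TATA box.
HBD promoter: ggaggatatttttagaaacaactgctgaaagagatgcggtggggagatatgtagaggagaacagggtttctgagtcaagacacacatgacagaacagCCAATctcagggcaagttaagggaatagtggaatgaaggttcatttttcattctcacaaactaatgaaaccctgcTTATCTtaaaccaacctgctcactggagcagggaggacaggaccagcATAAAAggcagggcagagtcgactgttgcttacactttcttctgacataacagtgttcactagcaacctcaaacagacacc
Searched on both strands, CCAAT occurred in 34.6% and TTATCT in 10.3% of the 35116 RefSeq promoters of this length, and ATAAAA, searched on the printed strand, in 9.44%. The marked CCAAT began at position 98 of the printed letters, TTATCT at 173 and ATAAAA at 220. Whether this CCAAT serves as the CCAAT box of the promoter was not tested. A match describes the letters and not a bound site. At the other end of the cluster, 3′ HS1 (chr11:5226033-5226442), a CTCF-bound boundary, had a relative pileup of 1.06, 0.982 and 0.991 with dCas9-KRAB and 1.24, 0.726 and 1.11 with dCas9, which overlapped (log2 difference 0.02, SE 0.20).

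Of the 12 windows of the cluster, 10 had a peak in all 6 lists and 9 entered the pileup fit. In 3 of these 9 (HS3, HBG2 and HBG1) the pileups with dCas9-KRAB lay below those with dCas9 without overlap and in 0 above, against 1.76% of all 38888 regions below and 1.51% above. Limma called 0 of the 9 at an adjusted p under 0.05 (0% of all regions), with 2 at an unadjusted p under 0.05 (0.211% of all regions). The median log2 difference over the 9 sites was −0.05, against 0.0023 over all regions. By rank, 5 of 10 sites were lower without overlap (HS3, the site between HBE1 and HBG2, HBG2, HBG1 and HBD) and 0 higher, against 1.94% and 1.97% of 62857 regions. On the local background, a measure chosen after the data had been seen, 3 of 9 (HS1, HS2 and HS3) were lower and 0 higher, against 1.19% and 1.2%. These are not counts of independent sites. The backgrounds of HS1, HS2 and HS3 may share fragments, and HBG2 and HBG1 are almost the same sequence. The shares over all regions are given for scale, and an excess in the cluster was not tested.

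**Figure D3:**
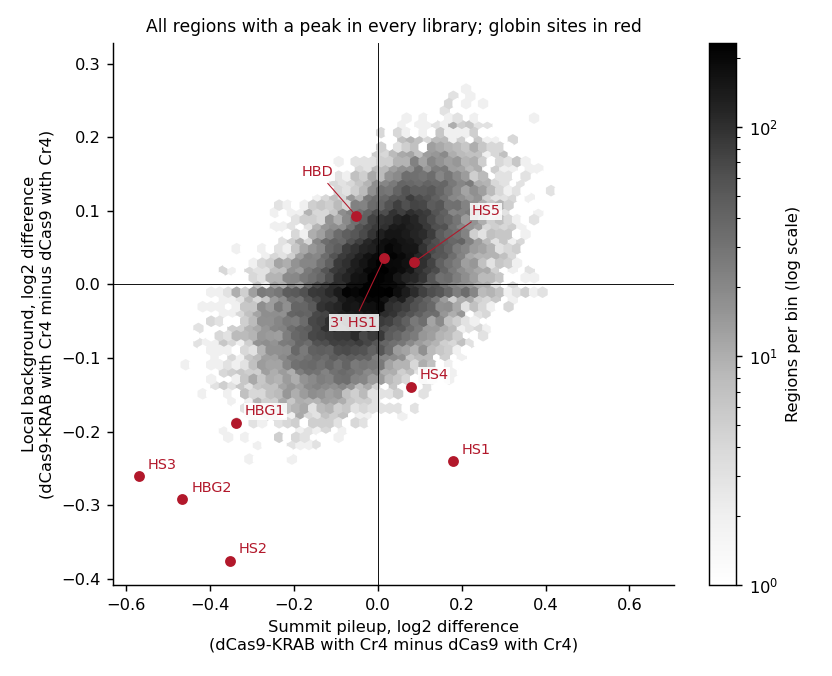
Log2 difference (dCas9-KRAB with Cr4 minus dCas9 with Cr4) of the local background against that of the summit pileup for the 38888 regions with a peak in every library, in grey bins of equal size shaded by number on a log scale. The globin sites are in red; HS3, HBG2, HS2 and HS1 lie outside the grey mass, and HBD, HS5 and 3′ HS1 within it.

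Lower values around HS2 covered some sites and skipped others. Among the 3 regions within 10 kb of HS2, leaving HS2 itself out, 1 of 3 had a negative pileup difference and 3 of 3 had a negative background difference, with a median background difference of −0.24. Between 10 and 100 kb the median pileup difference over 8 regions was −0.05, and 2 of the 8, HBG2 and HBG1, were lower without overlap and 0 higher. Between 100 kb and 1 Mb it was 0.03 over 17 regions, 3 of them lower without overlap and 0 higher. Over the 2137 regions farther away on chromosome 11 it was 0.01, with 32 lower without overlap and 41 higher. Over all 38888 regions 1.76% were lower on the pileup without overlap and 1.51% higher. On the local background the median difference between 10 and 100 kb was −0.0060 over 8 regions, 5 of them negative. Of these 8, HBG2 was at −0.29 (SE 0.20), place 4 from the lowest of all 38888 regions. HBG1 was at −0.19 (SE 0.20), place 123, and the groups overlapped at both promoters. Between 100 kb and 1 Mb the median background difference was −0.0079 over 17 regions.

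**Figure D4:**
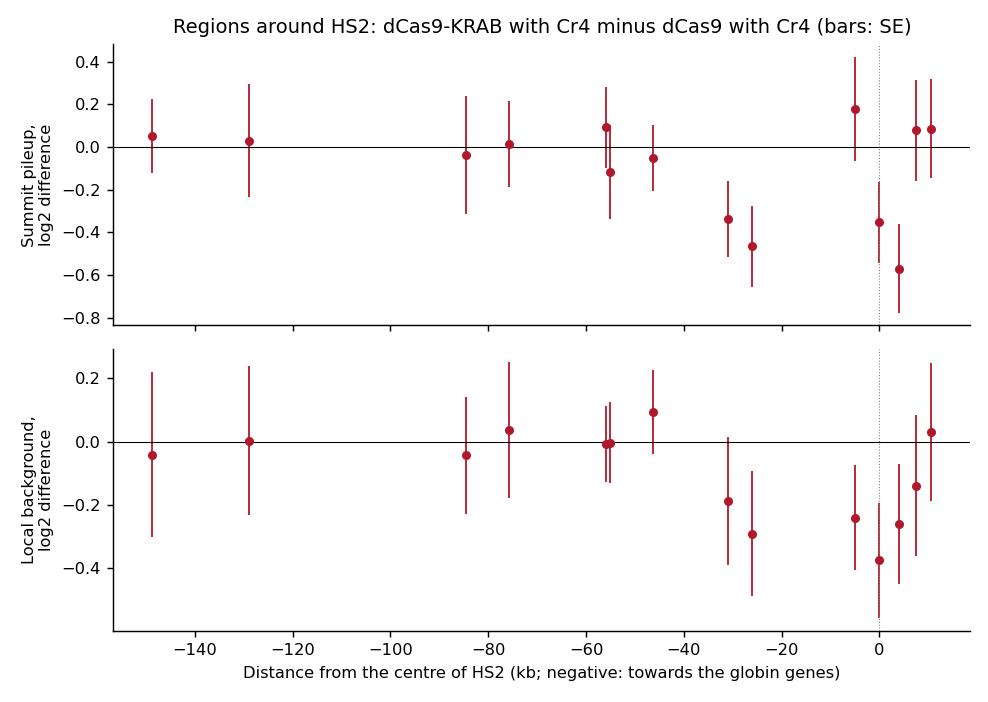
Log2 difference of the summit pileup (top) and of the local background (bottom), dCas9-KRAB with Cr4 minus dCas9 with Cr4, against the distance from the centre of HS2 in kb, with negative distances towards the globin genes. Bars are standard errors from limma; HS2, HS3 and the HBG pair stand low in the top panel, and HS1 and HS4 do not.

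The same sites can be set beside the other groups of the series. At HS2 the relative pileup averaged 1.13 ± 0.198 in dCas9-KRAB with Cr4 and 0.835 ± 0.224 in dCas9-KRAB with Cr10, the other gRNA for HS2. It averaged 1.44 ± 0.240 and 1.50 ± 0.286 in dCas9 carrying Cr4 or Cr10, and 1.84 ± 0.405 in dCas9-KRAB without a gRNA (SD, n = 3 in every group). At HS3 the mean was 0.942 ± 0.160 in dCas9-KRAB with Cr4 and 1.05 ± 0.239 in dCas9-KRAB with Cr10, against 1.39 ± 0.139 and 1.29 ± 0.429 in dCas9 with Cr4 or Cr10 and 1.65 ± 0.231 in dCas9-KRAB without a gRNA. Both groups of dCas9-KRAB with a gRNA had lower means at both sites than the other 3 groups.

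The difference between dCas9-KRAB and dCas9 at HS2 was −0.35 with Cr4 and −0.86 with Cr10 in log2 pileup, and 2.18 and −43.9 points by rank. The interaction of gRNA and KRAB had an adjusted p of 1.00 in limma on either measure. Its unadjusted p in limma was 0.0712 on the pileup and 0.0162 on the rank. At HS3 the order was the other way, −0.57 with Cr4 and −0.26 with Cr10 (limma adjusted p of the interaction 1.00). Across all regions, the Cr4 and Cr10 differences, which share no library, had a Pearson correlation of 0.0426 on the pileup, −0.0789 on the rank and 0.184 on the local background, given as a description across regions that are not independent. The comparison of dCas9-KRAB with Cr4 against dCas9-KRAB without a gRNA shares the dCas9-KRAB libraries with the one above. Its log2 pileup differences were −0.69 at HS2, −0.81 at HS3, −0.55 at HBG2 and −0.51 at HBG1 (limma adjusted p = 1.00 in each). At HS2, the designed target, limma's unadjusted p was 0.0013 on the pileup and 0.587 on the rank.

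Promoters of erythroid transcription factors differed little. Of the 10 windows, 8 were tested on the pileup, with a median log2 difference of 0.02, 0 called by limma and 0 at an unadjusted p under 0.05, against 0.211% of all regions. GATA1 and TAL1, which occupy the locus control region, differed by 0.03 (SE 0.20) and −0.0044 (SE 0.14). Their partners LMO2 and LDB1, of which LDB1 loops the locus, differed by −0.0030 (SE 0.18) and 0.02 (SE 0.14). NFE2, whose product binds HS2, and the repressor gene GFI1B differed by 0.12 (SE 0.19) and 0.08 (SE 0.15), and MYB by −0.01 (SE 0.12).

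KLF1, the activator of the adult beta-globin gene, was the 1 window of the 8 whose groups did not overlap, with dCas9-KRAB higher, against 1.51% of all regions. Its strongest region (chr19:12997025-12997319) had 118, 78 and 150 fragments with dCas9-KRAB and 80, 96 and 129 with dCas9, or 1.65, 1.39 and 1.35 against 1.12, 1.33 and 1.29 times the median. The relative local background there was high in both groups, at 4.13, 3.33 and 2.88 with dCas9-KRAB and 3.18, 3.16 and 2.89 with dCas9. The log2 difference was 0.23 (SE 0.15; limma adjusted p = 1.00). The window of RUNX1 had a peak in 1 of 15 lists and that of BCL11A, the repressor of fetal globin, in 0.

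The genes of erythroid products gave 6 tested windows of 7, with a median of 0.08, 0 called and 0 at an unadjusted p under 0.05, against the same 0.211%. The alpha-globin genes HBA2 and HBA1, near-identical copies of each other, were at 0.21 (SE 0.18) and 0.22 (SE 0.18), and the embryonic HBZ at 0.08 (SE 0.15). Their enhancer HS-40, the counterpart of HS2 on chromosome 16, had a relative pileup of 2.53, 2.46 and 1.87 with dCas9-KRAB and 2.22, 2.29 and 2.15 with dCas9, which overlapped (0.03, SE 0.14). The transferrin receptor gene TFRC was at −0.02 (SE 0.15) and the erythropoietin receptor gene EPOR at 0.07 (SE 0.13). ALAS2, the first enzyme of heme synthesis in red cells, had a peak in 5 of 15 lists and was not tested.

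The genes of the KRAB co-repressor complex also overlapped between groups at every promoter. TRIM28 differed by 0.17 (SE 0.18), SETDB1 by −0.13 (SE 0.19), and the heterochromatin protein genes CBX1, CBX3 and CBX5 by −0.02 (SE 0.14), −0.11 (SE 0.13) and 0.06 (SE 0.15). ZNF10, the gene from which the KRAB domain was taken, differed by −0.15 (SE 0.21). ACTB and GAPDH, as housekeeping genes, differed by 0.06 (SE 0.13) and 0.02 (SE 0.14), and SPI1 by −0.10 (SE 0.12). None of these 9 windows reached an unadjusted p under 0.05 in limma, which 0.211% of all regions did.

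**Figure D5:**
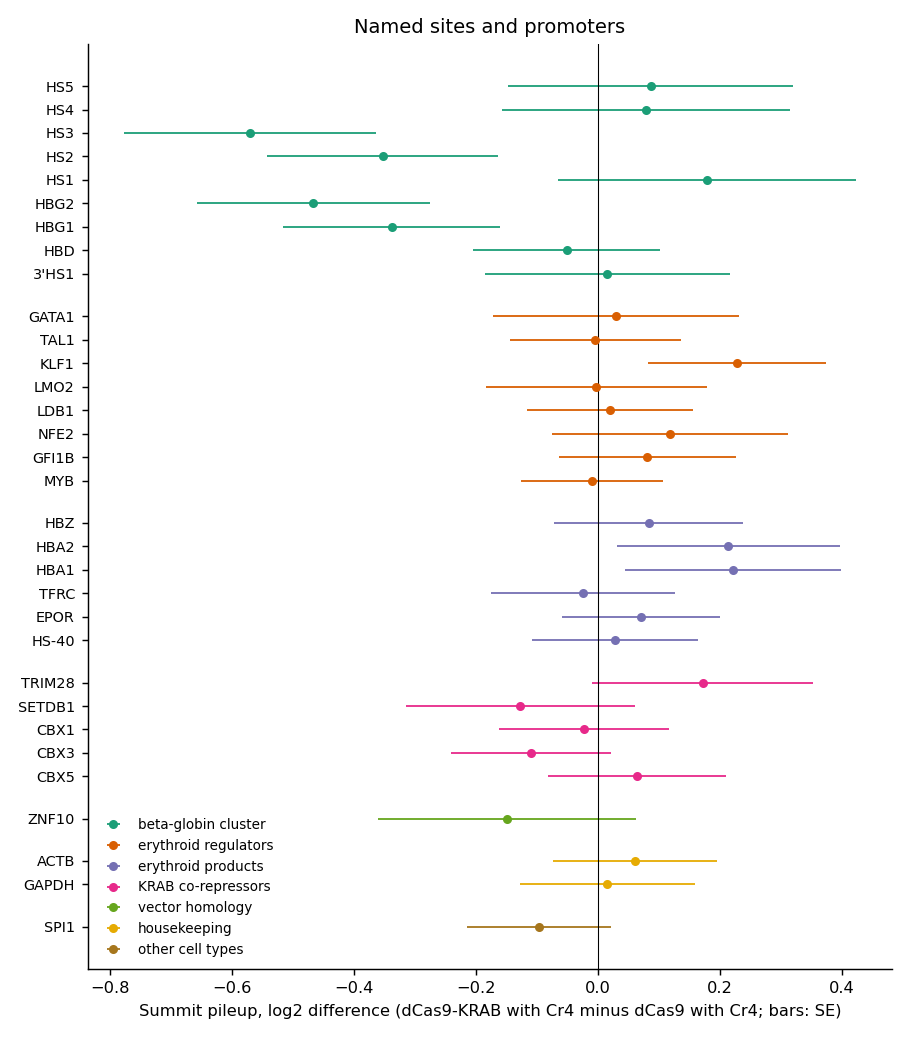
Log2 difference of the summit pileup, dCas9-KRAB with Cr4 minus dCas9 with Cr4, with its standard error from limma, for each named window with a peak in all 15 lists, grouped by list. HS3, HBG2, HS2 and HBG1 have the 4 lowest values, and KLF1 the highest.

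Across the genome no region passed limma's adjusted threshold of 0.05 by rank, pileup or local background. At an unadjusted p under 0.05 there were 788 of 62857 regions by rank (1.25%), 82 of 38888 by pileup (0.211%) and 7 by local background (0.018%). The pileup difference had an SD of 0.11 over all regions, which was smaller than its median SE of 0.17. The same held by rank (7.03 against 8.08 points) and on the local background (0.0697 against 0.119). Limma's p-values were thus cautious for this comparison, and the lack of a call does not show that a site was unchanged. The SE limits the size of a difference that could be told from replicate spread.

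Outside the globin cluster, the regions with the smallest p were chosen by that value and are described only. The lowest p on the pileup belonged to chr7:62475712-62476374, with 31, 29 and 61 fragments in dCas9-KRAB and 47, 56 and 69 in dCas9 (log2 difference −0.49, SE 0.18, limma adjusted p = 1.00). The next lower ones after HS3 were chr1:159167763-159168110 (−0.54), chr10:22839712-22840047 (−0.55) and chr10:69548235-69548692 (−0.40). The first higher one was chr15:98854846-98855184, with 40, 30 and 59 fragments in dCas9-KRAB and 27, 22 and 44 in dCas9 (log2 difference 0.53, SE 0.19, limma adjusted p = 1.00), and it also led the higher regions by rank, at 35.0 points. It was followed by chr9:88845723-88846200 (0.64), chr9:133661394-133661867 (0.32) and chr17:72086008-72086399 (0.43). Apart from the 1 at chr9:133661394-133661867, these were peaks below or near the median height of their library.

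By rank, the smallest p was at chr6:123190648-123190914, which had no peak in replicates 1 and 2 of dCas9-KRAB and 28 fragments in replicate 3, against 24, 26 and 37 fragments in dCas9. The difference was −29.4 points (SE 4.79, limma adjusted p = 1.00). The other lower regions were chrX:133160782-133161044 (−19.5), chr12:96894868-96895288 (−22.6) and chr10:5207815-5208042 (−14.6), all without a peak in any dCas9-KRAB list. The other higher ones were chr21:39531363-39531807 (13.3), chr16:3676517-3676768 (24.6), chr4:164172394-164172678 (21.3) and chr19:6603950-6604371 (7.99).

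Few regions had a peak throughout 1 group and were missing throughout the other. Of the 104494 regions with a peak in any of the 6 deposited lists, 11 had one in 3 of 3 dCas9-KRAB libraries and 0 of 3 dCas9 libraries (0.0105%), and 181 had the opposite (0.173%). These were short peaks: the median pileup of the 181 was 24, 22 and 31 fragments in the dCas9 libraries, whose list medians were 46, 45 and 55. The median of the 11 was 29, 23 and 40 in the dCas9-KRAB libraries, whose list medians were 48, 40 and 59. In lists of equal length the counts were 79 and 96. Of the 181, 95.03% had a peak in replicate 2 of dCas9-KRAB without a gRNA and 68.5% in replicate 3 of dCas9 with Cr10, the longest lists of those groups, and between 4.97% and 33.7% in the other 7 libraries. Of the 8148 regions with a peak in any 3 of the 6 lists with Cr4, 78.5% and 80.4% had one in these long lists, and between 13.8% and 42.0% in the other 7 libraries.

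The tallest of the 11 was chr9:133723141-133723608, with 87, 60 and 111 fragments in the dCas9-KRAB libraries on a local background of 3.95, 3.88 and 3.83 times the library median. The next were chr16:3163805-3164132 with 39, 26 and 46 fragments, chr2:11999101-11999476 with 29, 25 and 57, and chr11:74982135-74982404 with 29, 26 and 47. The tallest of the 181 was chr22:22398138-22398463, with 74, 64 and 78 fragments in the dCas9 libraries on a background of 3.42, 2.53 and 2.85 times the median. Behind it stood chr7:150076971-150077278, chr22:22210470-22210777, chr19:11307558-11307881 and chr5:176038412-176038649, with 50 to 68 fragments. The tallest of both sets thus lay on raised local backgrounds.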

How the data were processed

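DNase-seq peak lists of K562 were deposited 1 per library in narrowPeak layout. CASAVA 1.3, BWA, bedtools and hg19 come from the submitters' processing notes, and peak names begin with the MACS prefix. The sources used here do not give the peak caller's settings or the total of fragments. The deposited fold column is the authors' ratio of summit to local background, the p-value and q-value columns are deposited as −log10, and the deposited score column was not used.

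For every peak of each list (100%, within 0.01 in −log10 p), a whole number k satisfied fold = (k + 1)/(λ + 1) and the Poisson p of k given the local background λ. Peaks of all 15 libraries on the autosomes and X were merged at an overlap of 1 bp. Rank percentiles were fitted for 62857 regions with a peak in at least 3 libraries. The log2(k + 1) and, as an alternative chosen after seeing the data, log2 λ, each less the library median, were fitted for 38888 regions with a peak in all 15. Limma 3.58.1 (R 4.3.3) fitted 5 groups with a mean-variance trend, two-sided, adjusted by Benjamini and Hochberg over all regions. Python 3.11.15 ran the exact tests. The fit was first tested on simulated data.

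Named are HS2, all globin and promoter windows (40 windows, their hg19 positions recalled and checked against no annotation, each represented by its strongest region), and without calls the 5 regions in each direction with the smallest p whose groups did not overlap, by pileup and rank, and the 5 tallest regions present in 1 group alone. Members and lists were chosen with earlier results of these data known. Regions on chromosome 8 and some other loci are not reported here. Of 32 gene names, 19 matched a RefSeq promoter (GRCh38.p14).

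Replicate numbers from the titles recur across groups. Deviations from the group means of same-numbered libraries were correlated across regions. For numbers 1, 2 and 3 the values were 0.58, 0.13 and 0.14 on the pileup and 0.71, 0.26 and 0.17 on the local background, all positive. On the rank they were 0.39, −0.06 and 0.01. The numbers may therefore pair the libraries on the pileup and the local background, and less so on the rank. Replicate 2 of dCas9-KRAB, however, correlated higher with replicate 3 of dCas9 (0.39 on the pileup, 0.57 on the local background) than with its own number. So did replicate 3 of dCas9-KRAB with replicate 2 of dCas9 (0.195 and 0.246). Only number 1 correlated highest with its own number, so the pairing of the other numbers is uncertain. The main fits left the libraries unpaired, with the replicate block as an alternative, so SEs and p-values are unpaired unless the block is named. Alternatives covered list length, filters, overlap, normalization, pseudocount, the limma settings, the replicate block and leaving out each library.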

Additional observations from a re-analysis of the deposited data

How the results depend on the processing

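No region passed the adjusted threshold in limma under any alternative of rank, pileup or local background. HS2 kept a lower pileup under 14 of 15 alternatives, leaving out 1 library giving −0.49 to −0.22 (−0.22 without replicate 1 of dCas9). It turned to 0.0099 on the authors' fold column, which sets the summit against the local background. By rank HS2 changed sign: −1.26 points in the whole lists and −4.17 to 10.99 when 1 library was left out, with negative values (−1.01, −0.40, −0.29 and −4.17) without replicate 1 or 3 of dCas9-KRAB or replicate 2 or 3 of dCas9. Its local background stayed lower under all 9 alternatives (leaving out 1 library, −0.47 to −0.24) and ranged down to place 291 from the lowest (without replicate 3 of dCas9-KRAB). HS3 stayed lower on the pileup under all 15 (leaving out 1 library, −0.66 to −0.42), ranging down to place 324 without replicate 3 of dCas9-KRAB. With the replicate block, limma's unadjusted p at HS2 was 0.00900 on the pileup (−0.35), 0.0278 on the local background (−0.38) and 0.843 on the rank (2.18). On the pileup, limma's unadjusted p with the block was 0.00790 at HS3, 0.0141 at HBG2 and 0.0471 at HBG1, at places 2, 19 and 154 by p. The count past the threshold stayed 0 with the block. On the pileup 171 regions had an unadjusted p under 0.05, against 82 without the block. The regions listed in 1 group alone numbered 79 and 96 in equal-length lists, against 11 with dCas9-KRAB and 181 with dCas9. Leaving out 1 library gave 14 to 779 (779 without replicate 2 of dCas9-KRAB) and 258 to 1579 (1579 without replicate 3 of dCas9-KRAB). Such counts can only rise, as fewer libraries must meet the rule. In equal-length lists leaving out 1 library gave 180 to 374 and 227 to 456, so the wide range went with the unequal list lengths. Small pileups and 3 libraries a group limit all single-site statements.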

Other observations

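Differences moved slightly with peak height. Over 4 equal groups of the 38888 regions by mean pileup, the median log2 difference between dCas9-KRAB and dCas9 with Cr4 was −0.02, −0.01, 0.01 and 0.01 from the lowest to the highest group. Chromosome 19 had a median difference of 0.03 over 2604 regions, the highest of the autosomes and X. Its library medians of centred log2 pileup lay between 0.30 and 0.43 with dCas9-KRAB and between 0.28 and 0.36 with dCas9, which overlapped. These shifts are small beside those at HS3, HBG2 and HS2.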
